A study of Mus musculus with 6 samples.

Results

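A set of 10 genes of the WNT pathway was followed in mouse ovarian granulosa cells (GCs), the somatic cells that surround and nourish the oocyte. They were the rows of the deposited expression table named Wnt4, Rspo1, Fzd1, Fzd4, Lgr5, Ctnnb1, Lef1, Axin2, Nkd1 and Sfrp4, which makes 10 of 54532 genes. GCs came from female ICR mice that were 3 weeks old and had been given 5 IU of pregnant mare serum gonadotropin (PMSG), which makes follicles grow, 22 h before treatment. The mice then received 1 intraperitoneal injection of phosphate-buffered saline (PBS) or of 120 mg/kg cyclophosphamide (CTX), an alkylating chemotherapy drug, and GCs were collected 6 h later. RNA-seq was done on 3 samples per group, each a pool of the GCs of 3 mice, to ask whether gene expression and signaling pathways changed in GCs under CTX. All mice had received PMSG, so the values describe GCs of primed follicles.

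WNT proteins are secreted ligands that bind frizzled receptors and the co-receptors LRP5 and LRP6. In the canonical branch this stops the destruction complex, built on AXIN and APC, from degrading β-catenin, which then enters the nucleus and activates genes with TCF/LEF factors. R-spondins bind LGR receptors and keep frizzleds on the cell surface, while secreted frizzled-related proteins (SFRPs) bind ligands outside the cell, and AXIN2 and NKD1 act inside it as feedback inhibitors. In the ovary, WNT4 and RSPO1 are known for driving female gonad development, and frizzleds and SFRP4 for being regulated during ovulation and luteinization.

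Values are FPKM, fragments scaled to the length of the gene in kilobases and to sequencing depth, so levels of different genes can be compared per length. The reads rebuilt from these values came to between 16005869 and 18455011 per sample, so that 3 reads on 1 kb of gene gave 0.164 to 0.185 FPKM. CTX replicate 2 stood apart from the other samples: on the first principal component, which held 46.8% of the variance over all genes tested, it scored 74.7 while the other 5 samples lay between -26.6 and 13.2. The fitted changes of the 8 members tested are therefore given with and without it. Among defining GC markers, Foxl2 was at 184 to 193 FPKM in PBS samples and 145, 76.9 and 107 FPKM in CTX replicates 1, 2 and 3. The GC markers Cyp19a1, Inhba and Inhbb were at 59.2 to 62.4, 754 to 902 and 1583 to 1658 FPKM in PBS samples, and at 6.61, 211 and 529.8 FPKM in CTX replicate 2. Fshr, Nr5a2, Hsd17b1 and, by little, Inha were also lower there than in all PBS samples. Amh and Esr2, of the same list of 10 GC markers, went the other way. They were at 48.4 to 51.1 and 52.8 to 54.8 FPKM in PBS samples, and at 179 and 136 FPKM in CTX replicate 2. The summed level of 10 GC markers was 13033 to 14310 FPKM in PBS samples and 11138 to 11985 FPKM in CTX samples, most of it from Inha. Without Inha the sum was 3822 to 3947 FPKM in PBS samples and 3052, 1958 and 2611 FPKM in CTX replicates 1, 2 and 3. Markers of other cells were far lower: the sums were 57.9 to 61.9 FPKM for 9 theca and stroma genes in PBS samples, and 81.7, 31.1 and 59.4 FPKM in CTX replicates 1, 2 and 3. One of these 9, Acta2, passed the test described next and rose, from 7.66 to 8.60 FPKM in PBS samples to 14.7 to 20.48 FPKM in CTX samples. In bulk RNA, fewer cells of a type and less RNA per cell cannot be told apart.

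Of the 10 genes, 8 had a mean of at least 0.5 FPKM over the 6 samples and were tested, and Lgr5 and Lef1 lay under that limit. No member of the 8 passed the test of CTX against PBS, which asked for a Benjamini-Hochberg adjusted p below 0.05 in limma and a change of more than 2-fold. Of all 14463 genes tested, 139 (0.961%) passed it. Without the fold threshold, 254 genes (1.76%) and again 0 of the 8 had an adjusted p below 0.05. At an unadjusted p below 0.05 limma counted 2 of the 8, Wnt4 and Fzd1, against 2840 of all genes (19.6%). With limma's voom on the rebuilt reads, 0 of the 8 passed, against 134 of all genes (0.927%). In Wnt4 and Fzd1 all CTX samples lay below all PBS samples, which held for 2042 of all genes tested (14.1%). The reverse, with the lowest CTX sample above the highest PBS sample, held for 0 of the 8 and for 2175 of all genes (15%). With 8 genes tested, 1 gene moves such a share by 12.5 percentage points. Of the 8 fitted changes, 6 were below 0 and 2 above, with a median log2 fold change of -0.20, against -0.0081 over all genes tested. That median rests on CTX replicate 2, since it was 0.078 without this sample.

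In PBS samples the 10 genes kept a fixed order of levels, from Ctnnb1 with a mean of 126.6 FPKM through Sfrp4, Wnt4, Fzd1, Fzd4, Axin2, Nkd1, Rspo1 and Lgr5 to Lef1 with 0.0201 FPKM. The 3 PBS samples of each gene did not overlap with those of its neighbour in this order. The smallest step was 1.17-fold, between Fzd1 and Fzd4, and the largest was 7.78-fold, between Lgr5 and Lef1. Only 2.37% of genes tested had a higher mean than Ctnnb1 over the 6 samples, while 48.9% were higher than Wnt4 and 86.1% were higher than Rspo1. In CTX samples, 5 pairs of neighbours overlapped: Sfrp4 and Wnt4, Fzd4 and Fzd1, Axin2 and Nkd1, Nkd1 and Rspo1, and Lgr5 and Lef1.

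**Figure D1:**
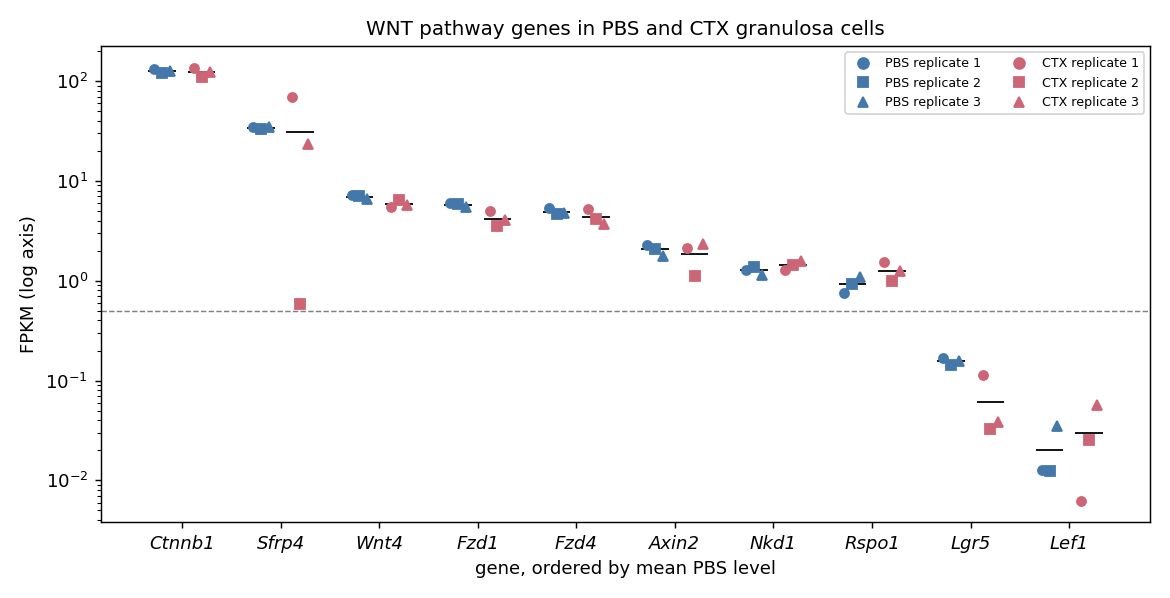
FPKM of the 10 WNT pathway genes (log axis) in each PBS and CTX sample, with the group mean as a black line and the limit for testing, 0.5 FPKM, as a dashed line. PBS samples sit close together in the genes tested, while Sfrp4 in CTX samples runs from 0.580 to 69.1 FPKM, and Lgr5 and Lef1 lie under the limit.

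Wnt4 encodes the ligand best known in the ovary (GRCm38 chr4:137277489-137299726, + strand, ENSMUSG00000036856). Its level was 7.29, 7.09 and 6.55 FPKM in PBS replicates 1, 2 and 3, and 5.50, 6.42 and 5.68 FPKM in CTX replicates 1, 2 and 3. The highest CTX sample was just under the lowest PBS sample, so the groups did not overlap. The means were 6.98 ± 0.383 and 5.87 ± 0.489 FPKM (SD, n = 3), with a log2 fold change of -0.25 (SE 0.09, 95% interval -0.47 to -0.03). The adjusted p was 0.220 in limma with Benjamini-Hochberg adjustment, and the two-sided exact permutation test gave 0.1, the smallest p that 3 samples against 3 allow. Without CTX replicate 2 the log2 fold change was -0.31 (limma, adjusted p = 0.112).

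Wnt4 was not the most abundant Wnt ligand in PBS samples. It took 28.2 ± 1.48% (SD, n = 3) of the summed FPKM of the 19 Wnt genes in the table, behind Wnt10b with 42.7 ± 0.771%. In CTX replicates 1, 2 and 3 Wnt4 took 21.2, 35.6 and 23.6%. Wnt10b took 44.8, 0.828 and 38.1% there, and its level was 11.6, 0.149 and 9.19 FPKM against 10.2 to 10.95 FPKM in PBS samples. In CTX replicate 2, then, Wnt4 led the ligands with Wnt5b and Wnt6 behind it, at 28.4 and 27.5% of the sum, Wnt6 being picked with its values in view.

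Rspo1 encodes an R-spondin that amplifies WNT signals (GRCm38 chr4:124986430-125009099, + strand, ENSMUSG00000028871). Its level was 0.753, 0.929 and 1.08 FPKM in PBS replicates 1 to 3 and 1.54, 0.989 and 1.24 FPKM in CTX replicates 1 to 3. CTX replicates 1 and 3 lay above all PBS samples, and CTX replicate 2 lay among them. The values rest on 26 to 34 rebuilt reads per PBS sample and 34 to 54 per CTX sample. The means were 0.922 ± 0.165 and 1.25 ± 0.275 FPKM (SD, n = 3), and the log2 fold change was 0.40 (SE 0.23, 95% interval -0.16 to 0.96, limma adjusted p = 0.375). It was 0.55 without CTX replicate 2 and 0.25 without CTX replicate 1. The exact permutation test, two-sided, gave p = 0.2. Rspo1 and Rspo2 shared nearly all R-spondin signal: Rspo1 took 52.0 ± 6.26% of the family's summed FPKM in PBS samples and 55.5 ± 13.5% in CTX samples (SD, n = 3). Rspo2 was at 0.560, 1.12 and 0.906 FPKM in PBS replicates 1 to 3 and at 0.626, 1.25 and 1.14 FPKM in CTX replicates 1 to 3. Within each group the sum of 7 oocyte markers stood in the same order. That sum was 32.2, 68.3 and 63.2 FPKM in PBS replicates 1 to 3 and 43.9, 78.4 and 75.4 FPKM in CTX replicates 1 to 3. The part of oocyte RNA in these shares was not tested.

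The receptors Fzd1 and Fzd4 had similar levels in PBS samples. Fzd1 (GRCm38 chr5:4753839-4758035, - strand, ENSMUSG00000044674) stood at 6.00, 5.81 and 5.50 FPKM in PBS replicates 1 to 3 and at 5.01, 3.52 and 4.02 FPKM in CTX replicates 1 to 3. All CTX samples were lower than all PBS samples, with CTX replicate 1 closest to them. The means were 5.77 ± 0.253 and 4.18 ± 0.759 FPKM (SD, n = 3), and the log2 fold change was -0.47 (SE 0.14, 95% interval -0.80 to -0.14), the furthest from 0 relative to its SE among the 8. Its adjusted p was 0.160 in limma with Benjamini-Hochberg adjustment and 0.137 with voom, and the two-sided exact permutation test gave 0.1. Without CTX replicate 1 the log2 fold change was -0.60 with a limma adjusted p of 0.0489, still under 2-fold, and without CTX replicate 2 it was -0.36 with 0.169. Over all genes, 208 of 14493 passed the adjusted p and fold thresholds without CTX replicate 1, against 139 with all samples.

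Fzd4 (GRCm38 chr7:89404355-89413134, + strand, ENSMUSG00000049791), a frizzled known for its role in blood vessels and the corpus luteum, had 5.34, 4.67 and 4.79 FPKM in PBS replicates 1 to 3 and 5.21, 4.11 and 3.73 FPKM in CTX replicates 1 to 3. CTX replicate 1 lay within the PBS range and the other 2 CTX samples lay below it. The log2 fold change was -0.19 (SE 0.14, 95% interval -0.53 to 0.15, limma adjusted p = 0.469), and the exact permutation p was 0.3 (two-sided). It was -0.32 without CTX replicate 1, -0.16 without CTX replicate 2 and -0.088 without CTX replicate 3.

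Set against the 10 frizzled genes of the table, Fzd1 took 12.9, 13.4 and 12.2% of the summed FPKM in PBS replicates 1 to 3 and 11.1, 7.88 and 9.91% in CTX replicates 1 to 3. These shares did not overlap, but they are built from the Fzd1 values given above and are no separate result. The summed level itself was 45.0 ± 1.51 FPKM in PBS samples and 43.4 ± 2.52 FPKM in CTX samples (SD, n = 3). Fzd4 took 10.9 ± 0.485% in PBS samples and 9.99 ± 1.35% in CTX samples (SD, n = 3), and its shares overlapped. Fzd8, picked with its values in view, held the highest share in PBS samples, 18.1 ± 1.01%, so neither Fzd1 nor Fzd4 was the main frizzled mRNA of these GCs.

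Lgr5 encodes a receptor for R-spondins and is a widely used WNT target and stem cell marker (GRCm38 chr10:115450311-115587780, - strand, ENSMUSG00000020140). It lay under the limit for testing, at 0.169, 0.143 and 0.156 FPKM in PBS replicates 1 to 3 and 0.113, 0.0329 and 0.0381 FPKM in CTX replicates 1 to 3. These values stood for 31, 27 and 26 reads and for 21, 6 and 7 reads. Every CTX sample was lower than every PBS sample, as was the case for 676 of 14394 genes under the limit with any reads (4.7%). That share includes genes with too few reads for the groups to stand apart, so it is not a close match for Lgr5. The same held for 5 of the 32 other WNT genes under the limit with any reads, and for 14.1% of genes tested. The summed reads were 84 (95% Poisson interval 67.0 to 104.0) in PBS samples and 34 (23.5 to 47.5) in CTX samples, intervals that cover counting error only. The mean level was 0.156 ± 0.0130 FPKM in PBS samples and 0.0613 ± 0.0448 FPKM in CTX samples (SD, n = 3), 2.55-fold higher in PBS samples. In a limma fit without the limit the log2 fold change was -0.70 (95% interval -1.37 to -0.04) with an adjusted p of 0.386, and the two-sided exact permutation p was 0.1. Lgr4, the related receptor, carried 85.0 ± 0.787% of the summed Lgr4, Lgr5 and Lgr6 level in PBS samples, and Lgr5 0.666 ± 0.0380% (SD, n = 3).

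Ctnnb1 encodes β-catenin, which carries the canonical signal and also joins cadherins at cell contacts (GRCm38 chr9:120929216-120960507, + strand, ENSMUSG00000006932). Its level was 131, 122 and 127 FPKM in PBS replicates 1 to 3 and 137, 110 and 124 FPKM in CTX replicates 1 to 3. The CTX samples spread on both sides of the PBS samples. The log2 fold change was -0.04 with a narrow 95% interval of -0.27 to 0.19 (SE 0.09, limma adjusted p = 0.830), and 0.04 without CTX replicate 2. The exact permutation p was 0.8 (two-sided). Canonical signaling acts on β-catenin protein, which these data do not measure. Of the exon bases of Ctnnb1, 14.6% also lie in exons of Ulk4 on the other strand, a gene with a mean of 0.786 FPKM.

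Lef1 encodes a TCF/LEF factor (GRCm38 chr3:131110471-131224356, + strand, ENSMUSG00000027985), and its mRNA was near the limit of detection. It had 2, 2 and 5 reads in PBS replicates 1 to 3 and 1, 4 and 9 reads in CTX replicates 1 to 3, which are 0.0128, 0.0124 and 0.0351 FPKM and 0.00628, 0.0257 and 0.0572 FPKM. The summed reads of 9 (95% Poisson interval 4.12 to 17.1) and 14 (7.65 to 23.5) overlapped within counting error, so no difference was detectable at this depth. Lef1 took 0.0454 ± 0.0294% of the summed TCF/LEF level in PBS samples, while Tcf7 took 74.2 ± 0.464% (SD, n = 3). Tcf7 was thus the main TCF/LEF mRNA, at 32.9 to 33.1 FPKM in PBS samples and 34.6 to 38.3 FPKM in CTX samples. The change of Tcf7 had a log2 value of 0.15 (95% interval -0.0003 to 0.30, limma adjusted p = 0.255).

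**Figure D2:**
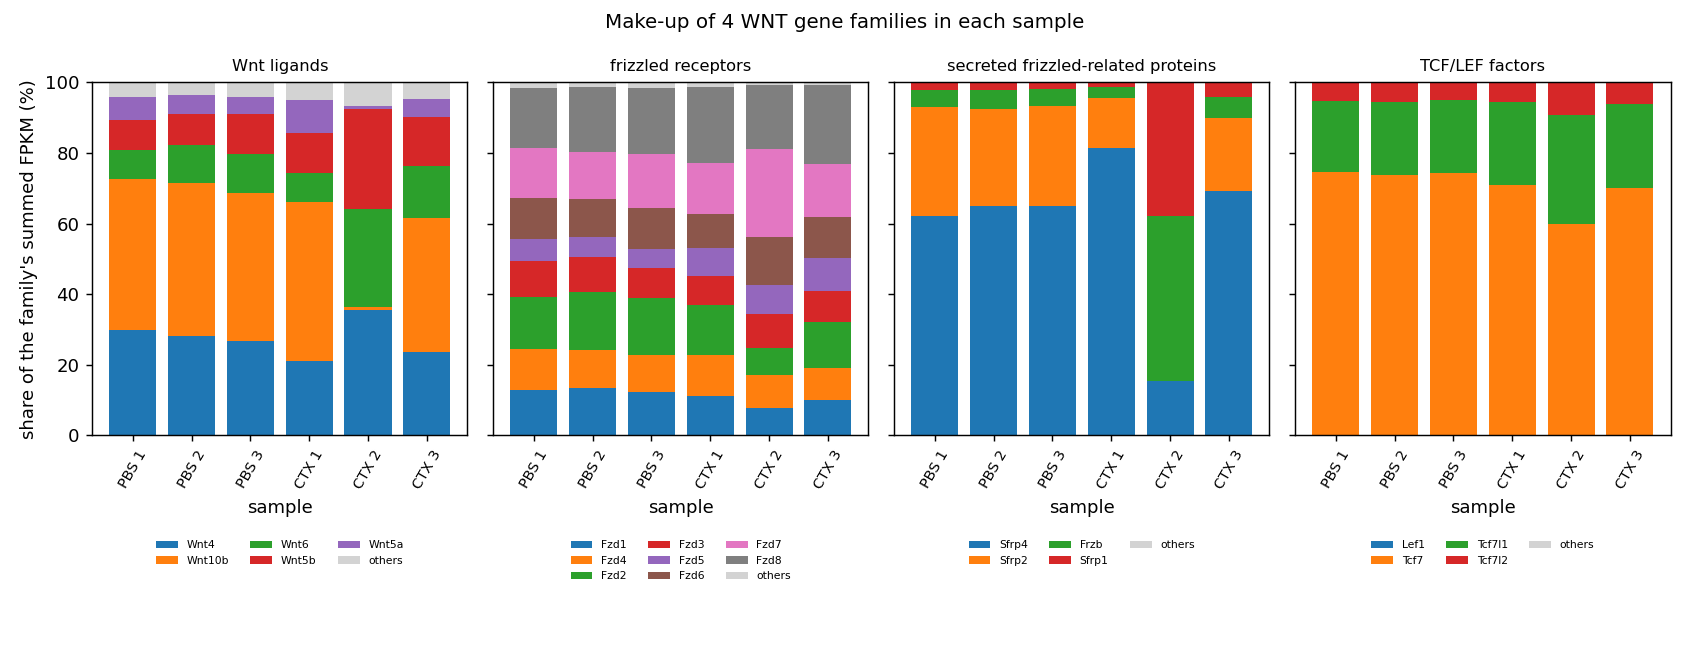
Share of the summed FPKM (%) that each gene took within the Wnt ligands, the frizzled receptors, the SFRPs and the TCF/LEF factors, 1 bar per sample. In CTX replicate 2 the shares of Sfrp4 and Wnt10b are 15.3 and 0.828%, against PBS means of 64.0 and 42.7%, and Lef1 is too low to be seen.

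Axin2 and Nkd1 are feedback inhibitors that canonical WNT signaling itself induces in many tissues, and are often read as its targets. Axin2 (GRCm38 chr11:108920349-108950783, + strand, ENSMUSG00000000142) stood at 2.30, 2.10 and 1.77 FPKM in PBS replicates 1 to 3 and at 2.11, 1.11 and 2.34 FPKM in CTX replicates 1 to 3. CTX replicate 2 was the lowest of the 6 samples and CTX replicate 3 the highest. The log2 fold change was -0.20 (SE 0.29, 95% interval -0.89 to 0.49, limma adjusted p = 0.710), and it was 0.12 (-0.26 to 0.49) without CTX replicate 2. The exact permutation p was 0.9 (two-sided).

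Nkd1 (GRCm38 chr8:88521354-88594884, + strand, ENSMUSG00000031661), whose protein binds Dishevelled, had 1.29, 1.38 and 1.15 FPKM in PBS replicates 1 to 3 and 1.30, 1.43 and 1.59 FPKM in CTX replicates 1 to 3. The groups overlapped, with CTX replicates 2 and 3 above all PBS samples. The means were 1.27 ± 0.114 and 1.44 ± 0.148 FPKM (SD, n = 3), and the log2 fold change was 0.16 (SE 0.16, 95% interval -0.22 to 0.54, limma adjusted p = 0.572). It was 0.17 without CTX replicate 2, 0.095 without CTX replicate 3 and 0.099 without PBS replicate 3. The exact permutation p was 0.2 (two-sided). For Axin2 the interval reached -0.89, so a fall of nearly 2-fold lay within it, while for Nkd1 it left room for smaller changes.

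The promoters of members were searched for TCF/LEF words, since Axin2, Lgr5, Nkd1 and Lef1 are known as WNT targets. RefSeq starts were found for 8 of the 10 genes, all but Sfrp4 and Lgr5, with 12 promoters in all. The word CTTTG, followed by AA, AT, TA or TT, was sought on both strands in the 250 bases before each start. Of the 12 promoters, 1 (8.33%) held a match, at a Lef1 start inside the gene, against 14.84% of 32851 promoters of the same length. By gene, 1 of 8 (12.5%) held a match, against 16.75% of 27025 genes. These letters were not in the windows of the other members, which says nothing about sites elsewhere. The windows of Nkd1 and Ctnnb1 also lay within the gene positions given above. The sequences (RefSeq, GRCm38.p6) are shown 5′ to 3′ on the strand of the gene for this Lef1 start, chr3:131156044-131156293, + strand, for Axin2, chr11:108920099-108920348, + strand, as the feedback target, and for Fzd1, chr5:4758217-4758466, - strand, as the gene furthest from 0 relative to its SE. Capitals mark the match, whose first base lies 147 bases before the start.
Lef1: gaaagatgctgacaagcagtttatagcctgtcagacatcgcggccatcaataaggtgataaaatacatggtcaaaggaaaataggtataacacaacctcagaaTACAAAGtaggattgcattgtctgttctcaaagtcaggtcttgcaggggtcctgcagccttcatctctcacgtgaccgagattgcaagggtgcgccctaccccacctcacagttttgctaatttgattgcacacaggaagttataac
Axin2: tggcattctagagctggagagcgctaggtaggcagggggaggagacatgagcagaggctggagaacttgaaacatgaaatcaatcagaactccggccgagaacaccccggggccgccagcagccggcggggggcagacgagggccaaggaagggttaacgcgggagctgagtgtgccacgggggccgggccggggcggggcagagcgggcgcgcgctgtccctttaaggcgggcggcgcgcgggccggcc
Fzd1: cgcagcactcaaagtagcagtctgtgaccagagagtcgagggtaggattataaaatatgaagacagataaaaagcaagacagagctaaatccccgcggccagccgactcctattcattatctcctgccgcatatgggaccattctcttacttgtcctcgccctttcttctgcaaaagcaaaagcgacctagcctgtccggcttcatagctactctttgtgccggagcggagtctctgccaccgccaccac
The windows differed in composition, with 44.8% G and C in the Lef1 window, 69.2% in that of Axin2 and 51.2% in that of Fzd1.

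Sfrp4 encodes a secreted inhibitor that binds WNT ligands (GRCm38 chr13:19623104-19632994, + strand, ENSMUSG00000021319), and it was the member that varied most. Its level was 34.6, 32.7 and 35.1 FPKM in PBS replicates 1, 2 and 3. It was 69.1, 0.580 and 23.5 FPKM in CTX replicates 1, 2 and 3, from 5236, 43 and 1759 rebuilt reads. One CTX sample was above all PBS samples and the other 2 were below them, with 119-fold between the highest and the lowest CTX sample. On the log2(FPKM + 0.1) scale this CTX range was 6.67, the 5th widest of the 14463 genes tested. Another SFRP gene, Sfrp2, was the 3rd widest.

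The group means of Sfrp4 were 34.1 ± 1.22 and 31.1 ± 34.9 FPKM (SD, n = 3), so the mean hid the spread. The log2 fold change was -1.72 with an SE of 1.60 and a 95% interval of -5.59 to 2.14, and the limma adjusted p was 0.562. It turned to 0.24 without CTX replicate 2 and was -3.09 without CTX replicate 1, with limma adjusted p-values of 0.785 and 0.217. The exact permutation p was 1 (two-sided). No direction can be given for Sfrp4 under CTX from these 3 samples.

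Within the 5 SFRP genes, Sfrp4 took 64.0 ± 1.53% of the summed FPKM in PBS samples (SD, n = 3) and 81.4, 15.3 and 69.2% in CTX replicates 1, 2 and 3. The summed SFRP level was 53.3 ± 2.64 FPKM in PBS samples and 84.9, 3.79 and 33.9 FPKM in CTX replicates 1, 2 and 3. Sfrp2 was at 13.8 to 17.1 FPKM in PBS samples and at 12.1, 0 and 7.0002 FPKM in CTX replicates 1, 2 and 3. The 0 in CTX replicate 2 allows up to 3 reads, where PBS samples had 535 to 655. The fitted log2 fold change of Sfrp2, -2.91 (limma adjusted p = 0.386), depends on the 0.1 added before the log, and it was -0.73 without CTX replicate 2 (limma adjusted p = 0.159). In CTX replicate 2 the main SFRP mRNAs were therefore Frzb and Sfrp1, both picked with their values in view, at 46.9 and 37.8% of a small sum.

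Some markers of other cell types and of GC function stood in the same order as Sfrp4 among the CTX samples. This order, with replicate 1 highest and replicate 2 lowest, was that of 26.1% of all genes tested. It was that of 5 of 9 theca and stroma markers, 7 of 10 GC markers and 6 of 7 surface epithelium markers. It was also that of 3 of 6 endothelial, 1 of 8 leukocyte and 0 of 7 oocyte markers. These marker counts include genes under the limit for testing. Among the markers in this order, those were Krt7, Muc16, Upk1b, Emcn, Pecam1 and Itgam. Of the 10 members, 5 had this order, with Sfrp4 itself and Lgr5, under the limit, among them. Cyp17a1, the theca enzyme of androgen synthesis, was at 30.8 to 34.4 FPKM in PBS samples and at 29.6, 1.25 and 12.4 FPKM in CTX replicates 1, 2 and 3. Cyp19a1, the aromatase of GCs, was at 59.2 to 62.4 FPKM and at 47.6, 6.61 and 32.5 FPKM. Amh, the anti-Mullerian hormone of growing follicles, went the other way, at 48.4 to 51.1 FPKM and at 54.3, 179 and 85.5 FPKM. The summed leukocyte markers were 19.6 to 20.9 FPKM in PBS samples and 32.0, 60.9 and 22.6 FPKM in CTX replicates 1, 2 and 3, and the summed oocyte markers 32.2 to 68.3 FPKM and 43.9, 78.4 and 75.4 FPKM. The summed surface epithelium markers were 22.6 to 26.6 FPKM in PBS samples and 28.3, 35.1 and 27.7 FPKM in CTX replicates 1, 2 and 3, while without Krt8, which carried most of it, the sum was 5.12 to 5.97 FPKM and 6.85, 1.90 and 4.29 FPKM. The summed endothelial markers were 6.64 to 7.22 FPKM and 5.88, 2.61 and 5.94 FPKM in CTX replicates 1, 2 and 3. The part of these differences in the spread of Sfrp4 was not tested.

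**Figure D3:**
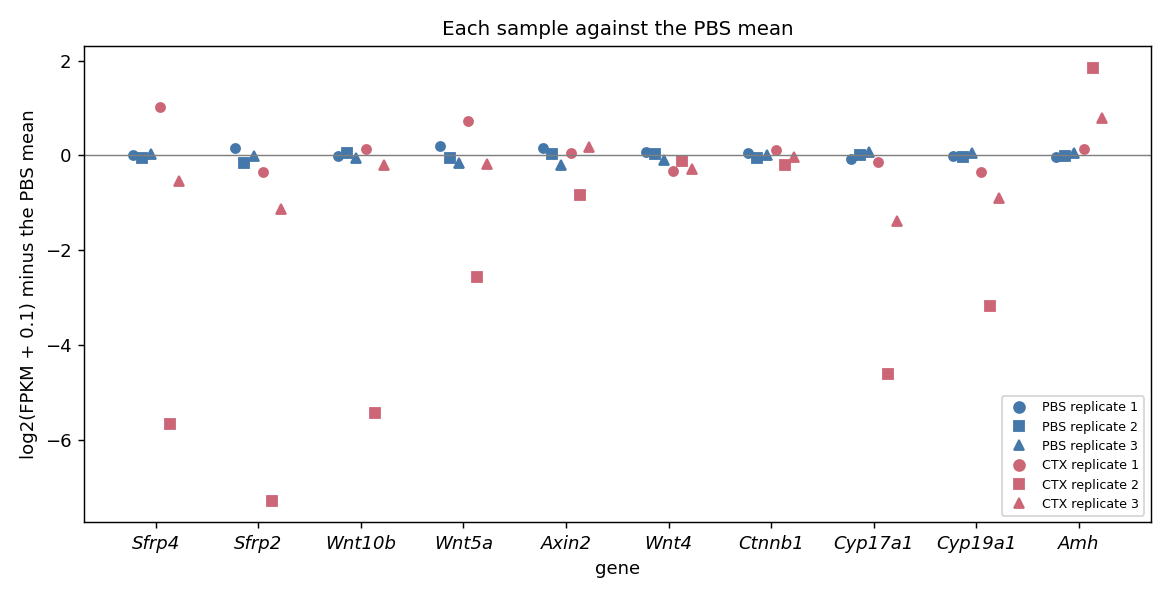
log2(FPKM + 0.1) of each sample minus the PBS mean for 4 members, 3 other WNT pathway genes and 3 marker genes, with a symbol per replicate. CTX replicate 2 (red square) is lowest for Sfrp4, Sfrp2, Wnt10b, Wnt5a, Axin2, Ctnnb1, Cyp17a1 and Cyp19a1, and highest for Amh.

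CTX samples were more spread than PBS samples in all 8 members tested. The median log2 SD of the 8 was 0.0904 among PBS samples and 0.247 among CTX samples, against 0.104 and 0.1805 over all genes tested. The SD was greater among CTX samples in 69.4% of all genes. CTX replicate 2 was the lowest CTX sample in 5 of the 8 members, against 37.4% of all genes, and the highest in 1, against 41.3%. Wnt5a, chosen after its values were seen, had 1.23 to 1.61 FPKM in PBS samples and 2.36, 0.151 and 1.21 FPKM in CTX replicates 1, 2 and 3.

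**Figure D4:**
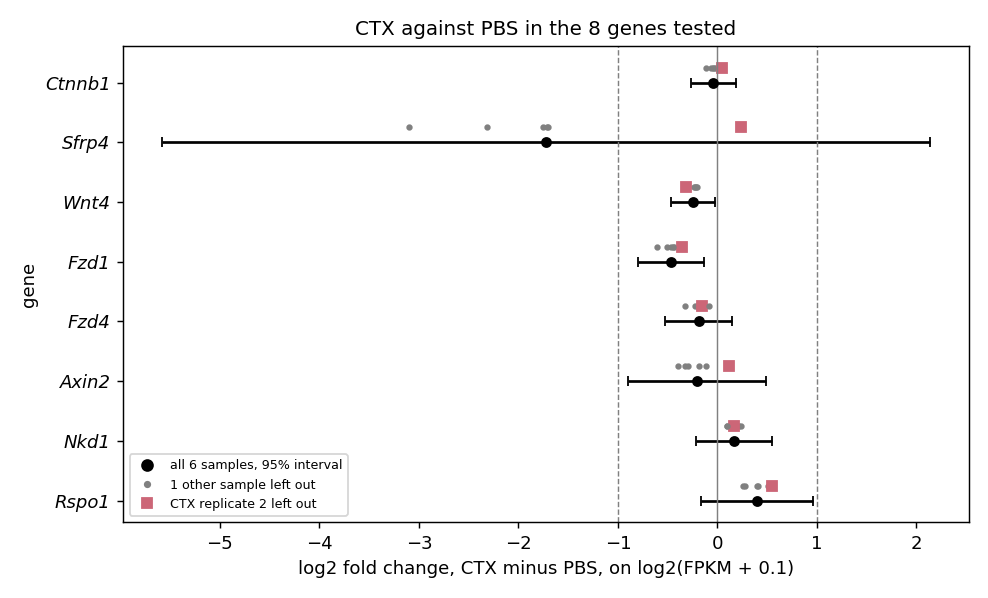
limma log2 fold change, CTX minus PBS, of the 8 members tested with 95% intervals (black), and the value with 1 sample left out (grey dots, red squares for CTX replicate 2). All intervals but those of Wnt4 and Fzd1 reach across 0, and leaving out CTX replicate 2 moves Sfrp4, Axin2 and Ctnnb1 to the other side of 0.

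The wider pathway was read from 101 other WNT genes listed by role, of which 64 were tested and 37 lay under the limit. In limma, 0 of the 64 passed the adjusted p and fold thresholds, and 15 had an unadjusted p below 0.05, 10 higher and 5 lower in CTX samples, a share near the background of 19.6%. With voom 1 passed, Myc. The lowest CTX sample exceeded the highest PBS sample in 15 of the 64, and 9 showed the reverse, against 15% and 14.1% of all genes. The median log2 fold change was 0.06, with 41 genes higher and 23 lower. By role, 4 of 19 ligands, 1 of 3 R-spondins, 14 of 16 receptors and 6 of 14 genes listed as secreted inhibitors were tested. Kremen1 and Kremen2, which encode receptors, were listed with these inhibitors. Also tested were 17 of 20 cytoplasmic components, all 13 nuclear components, 5 of 12 targets and the 2 genes each of ligand release and receptor turnover.

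Myc, a proto-oncogene that WNT and many other signals induce, came closest to the threshold. It was at 32.8, 31.3 and 30.7 FPKM in PBS replicates 1 to 3 and at 53.1, 100.4 and 72.6 FPKM in CTX replicates 1 to 3. All CTX samples were higher, with replicate 2 highest. The log2 fold change was 1.205 (SE 0.22, limma adjusted p = 0.0580), and the adjusted p was 0.0392 with voom. Without CTX replicate 1 it passed limma too, with a log2 fold change of 1.43 (adjusted p = 0.0123), while without CTX replicate 2 it was 0.97, just under 2-fold (limma adjusted p = 0.0190).

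On the side of ligand release, Porcn, which encodes the acyltransferase that lipidates WNT proteins, was at 3.55, 3.56 and 3.52 FPKM in PBS replicates 1 to 3 and at 2.32, 1.60 and 2.05 FPKM in CTX replicates 1 to 3. The groups stood apart, and the log2 fold change was -0.82 (SE 0.15, limma adjusted p = 0.0591). Without CTX replicate 2 the limma adjusted p was 0.0268 at a log2 fold change of -0.68. Wls, the WNT carrier protein, overlapped between the groups with a log2 fold change of 0.05 (95% interval -0.15 to 0.26).

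Among receptors and their turnover, Lgr4 was at 19.0 to 21.7 FPKM in PBS samples and 18.2, 11.9 and 15.5 FPKM in CTX replicates 1 to 3, a log2 fold change of -0.41 (limma adjusted p = 0.230) that was -0.25 without CTX replicate 2. Lrp5, a co-receptor, had a log2 fold change of -0.14 (limma adjusted p = 0.302). Znrf3, the ubiquitin ligase that removes frizzleds and that R-spondins block, was at 2.24 to 2.66 FPKM in PBS samples and at 3.19, 3.18 and 3.15 FPKM in CTX samples, a log2 fold change of 0.38 (limma adjusted p = 0.142). Its relative Rnf43 had a log2 fold change of 0.06 (95% interval -0.60 to 0.72). Fzd5, chosen after its values were seen, had 2.44 to 2.89 FPKM in PBS samples and 3.48 to 3.79 FPKM in CTX samples, a log2 fold change of 0.47 (limma adjusted p = 0.0993).

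Apart from Wnt5b, whose interval lay above 0, the other genes named by level gave small fitted changes or wide intervals. Wnt10b had a log2 fold change of -1.82 (95% interval -5.27 to 1.63), which was -0.027 without CTX replicate 2 (limma adjusted p = 0.919). Wnt5b had one of 0.65 (0.12 to 1.18, limma adjusted p = 0.192), and 0.43 without CTX replicate 2. All CTX samples of Wnt5b lay above all PBS samples, as did those of Csnk1a1, which held for 15% of all genes tested. Rspo2 had 0.19 (-0.65 to 1.04) and 0.023 without CTX replicate 2, and Rspo3 had at most 0.0182 FPKM in any sample. Kremen1, a receptor for Dickkopf inhibitors, had 0.15 (-0.10 to 0.40), and 0.059 without CTX replicate 2. The casein kinases Csnk1d and Csnk1a1 had -0.05 (-0.20 to 0.09) and 0.17 (-0.04 to 0.37), the latter 0.081 without CTX replicate 2, and the β-catenin antagonist Cby1 had -0.0030 (-0.40 to 0.39). Fst, which encodes follistatin, was at 281 to 303 FPKM in PBS samples and 264 to 303 FPKM in CTX samples. The Dishevelled-binding Dact1 and Dact3, chosen after their values were seen, had log2 fold changes of 1.22 and 0.93 (limma adjusted p = 0.146 and 0.0785), with all CTX samples above all PBS samples in both.

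These results depend on how the samples are weighted. When limma's arrayWeights gave each sample its own weight, Wnt4, Fzd1 and Fzd4 were lower and Rspo1 higher in CTX samples at adjusted p-values of 0.00400, 0.00163, 0.0117 and 0.0368, each by less than 2-fold. With these weights 39.8% of all genes had an adjusted p below 0.05, as did 4 of the 8 members and 30 of the 64 other WNT genes. The library kit and the deposited table do not say whether reads were counted by strand, so reads of Ctnnb1 and Ulk4 may not be separate. The same holds for the 13.8% of Lef1 exon bases and the 3.80% of Axin2 exon bases that lie in antisense genes, of which Gm43352, at Lef1, was at 0 and Gm11670, at Axin2, had a mean of 0.0561 FPKM.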

How the data were processed

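Labels placed the 6 RNA-seq samples of mouse GCs in the PBS and CTX groups (n = 3 each), with the GCs of 3 other mice in every sample. The authors deposited FPKM values for 54532 genes, with GRCm38 coordinates and the gene length in bases. The submitters' processing notes name CASAVA 1.8, fastp, HISAT2 2.0.5, featureCounts 1.5.0-p3, DESeq2 1.20.0 and mm10, without roles. Columns deposited by the authors with their own comparison (log2 fold changes, p-values) were not used, and their mean signal of each group, in scaled reads, served only to check the rebuilt reads. No per-sample column was left unused (0).

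FPKM multiplied by gene length gave whole multiples of 1 read (tolerance 0.05) for 100% of values, so reads could be rebuilt. The values carry a scaling between samples by the authors, which sets what a fold change is relative to. Intervals and floors (3 reads) cover counting error only. Samples are separate pools of mice, so p-values measure the spread between pools.

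log2(FPKM + 0.1) of genes with a mean of at least 0.5 FPKM was fitted with limma 3.58.1 in R 4.3.3 (eBayes with trend), with no covariate and Benjamini-Hochberg adjustment over 14463 genes. This scale understates changes of low genes. Single genes were also compared by exact permutation tests over samples in SciPy 1.17.1 (Python 3.11.15, pandas 2.3.3, NumPy 2.4.6). Plots were made in matplotlib 3.10.9. The fit was tested on simulated data. Alternatives were pseudocounts of 1 and 0.01, no filter or a mean of at least 1 FPKM, other scalings, a replicate block, arrayWeights, eBayes without trend, voom on rebuilt reads, other thresholds and each sample left out.

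The 10 members, the 101 other WNT genes and the marker lists were chosen with earlier results of these data known. Of the other WNT genes, those passing the test and the 2 with the highest mean FPKM of each role were named, and any other is said to have been picked with its values in view. Promoters came from a RefSeq table (GRCm38.p6), and exon overlaps from GENCODE.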

Additional observations from a re-analysis of the deposited data

How the results depend on the processing

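No pairing of the samples by replicate number is given. Every sample holds other mice, and how the numbers were assigned is not stated. Same-numbered samples deviated together with correlations of only 0.0556, 0.0242 and 0.00581. With a replicate block, 50 genes of the table passed in place of 139, and 0 members passed. Over the alternatives, the count of all genes passing was 657 with arrayWeights and 254 at an adjusted p below 0.05 with no fold threshold, and it ranged from 58 to 208 with 1 sample left out. Members passing numbered 2 at an unadjusted p below 0.05 with no fold threshold, and 0 under every other alternative run, with 0 for each sample left out. Without a filter 96 other WNT genes were tested and 1 passed, against 132 of all 28857 genes. It was Wnt8a, picked with its values in view. Wnt8a had 0 reads in each PBS sample and 6, 6 and 4 in CTX replicates 1, 2 and 3. Its log2 fold change of 1.43 (limma adjusted p = 0.0487) depends on the 0.1 added before the log. Of the 64 above the filter, 2 passed with arrayWeights (Myc and Dact1), 1 with voom (Myc) and 15 at an unadjusted p below 0.05. With 1 sample left out, 0 to 1 passed, which was Myc without CTX replicate 1. Members whose groups did not overlap numbered 2 to 5 with 1 sample left out. The 5 without CTX replicate 1 were Sfrp4, Fzd4, Wnt4, Fzd1 and Nkd1, where 48.8% of all genes did not overlap either, against 29.2% with all samples. With any other single sample left out, 2 or 3 members did not overlap, against 34.9 to 39.3% of all genes. The median log2 fold change of the members ranged from -0.26 to 0.078 with 1 sample left out. Of 491 values of the named genes above the limit, 470 kept their direction and side of the threshold. Of the rest, 4 newly passed (Myc 3 times and Dact1 once) and 17 reversed, in 9 genes of which none had passed. Lgr5, Lef1 and Rspo3, under the limit, were fitted only without the filter and have no value in this count. With arrayWeights the log2 fold change was 0.145 for Axin2, 0.0818 for Cby1, 0.0752 for Fst and -0.00697 for Wls, and with voom it was 0.000345 for Cby1. With 1 sample left out it ranged from -0.114 to 0.0412 for Ctnnb1, from -3.09 to 0.241 for Sfrp4, from -0.394 to 0.115 for Axin2, from -0.0571 to 0.468 for Rspo2, from -0.0172 to 0.0874 for Wls, from -0.12 to 0.23 for Rnf43, from -0.145 to 0.163 for Cby1, from -0.0381 to 0.0609 for Fst and from -1.37 to 0.279 for Wnt5a, with the values of Ctnnb1, Sfrp4, Axin2, Cby1, Fst and Wnt5a highest without CTX replicate 2. The cause was not tested. Depth limits Lef1, Lgr5 and Rspo1 most.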
